A study of Gorilla gorilla with 12 samples.

Results

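Cytosolic ribosomal proteins are the protein parts of the ribosomes that translate messenger RNA in the cytosol. Their genes were followed here in cultured gorilla fibroblasts, connective tissue cells grown in a dish. Members were all probe sets whose annotation gave a single symbol starting with RPL or RPS and a digit, or RPLP0, RPLP1, RPLP2 or RPSA. Symbols of the RPS6 kinases, pseudogenes and the Y-linked RPS4Y1 were left out. The rule found 55 probe sets of 49 genes among the 12625 probe sets of the array, 29 genes of the large and 20 of the small subunit. A further 20 probe sets carried a ribosomal protein symbol beside another one, often that of a small nucleolar RNA hosted in its introns, and were not analysed here. RPLP0, RPLP2 and RPSA had no probe set with a single symbol.

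The arrays held RNA of 5 lines from male gorillas aged 19, 26, 24, 18 and 3 years and of 6 lines from females aged 19, 19, 35, 26, 30 and 2 years. These arrays are called standard here, since their labels name no special harvest. Below, lines carry their labelled sex and a number in the order just given, which pairs no male with any female. Male line 2, of the donor aged 26 years, was also grown and collected at 50% confluence, a dish still partly bare. How dense the other cultures were at harvest is not stated. Each line was 1 donor on 1 array, so the spread between lines holds animal, culture and array differences together. Of 15 fibroblast markers with a probe set, 15 were above the floor on all 12 arrays, while the keratinocyte genes KRT5 and KRT14, the leukocyte genes PTPRC and LYZ and the endothelial gene VWF stood at the floor on all of them. Other markers of these lists were detected: 2 of 9 epithelial, 2 of 5 leukocyte and 1 of 3 melanocyte markers were above the floor on all 12 arrays, with highest values of 3059, 1673 and 433 over each list; their part in the results was not tested.

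The ribosome has a large subunit, which forms peptide bonds and holds the tunnel through which the new protein leaves, and a small subunit, which reads the codons. A cell needs their proteins in about equal numbers. In mammals most of the messenger RNAs start with a pyrimidine tract through which growth signals set their translation together, so RNA level and protein output can part. Most ribosomal protein genes also have many processed copies in the genome, and near-identical copies cannot be told apart by some probes.

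Intensities were deposited on a linear scale, and no value lay below a floor of 100. Of the 55 probe sets, 50 were above the floor on all 12 arrays, and 36 had over 5000 on all of them. The other 5 touched the floor. RPL39, a small protein of the exit tunnel, was at 100 on all 12 arrays, so this probe set gave no information on its gene. A probe set of RPS14, 32413_at, had 104 in male 5 and 100 on the other arrays. RPL3L, a copy of RPL3 used in human skeletal muscle and heart, had 126 in female 6 and 100 elsewhere. RPL39L, a copy of RPL39 known from human testis, had 256, 135 and 141 in males 1, 4 and 5, 204 and 172 in females 2 and 5, and the floor in the other 6 standard lines. The dimmer RPS21 probe set, 31948_at, was at the floor in male 3 and in females 4 and 5, and reached 316 in male 5. Probes of this array were designed on human sequence, so a base difference in gorilla lowers an intensity whatever the RNA level, and no probe set is ranked against another.

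**Figure D1:**
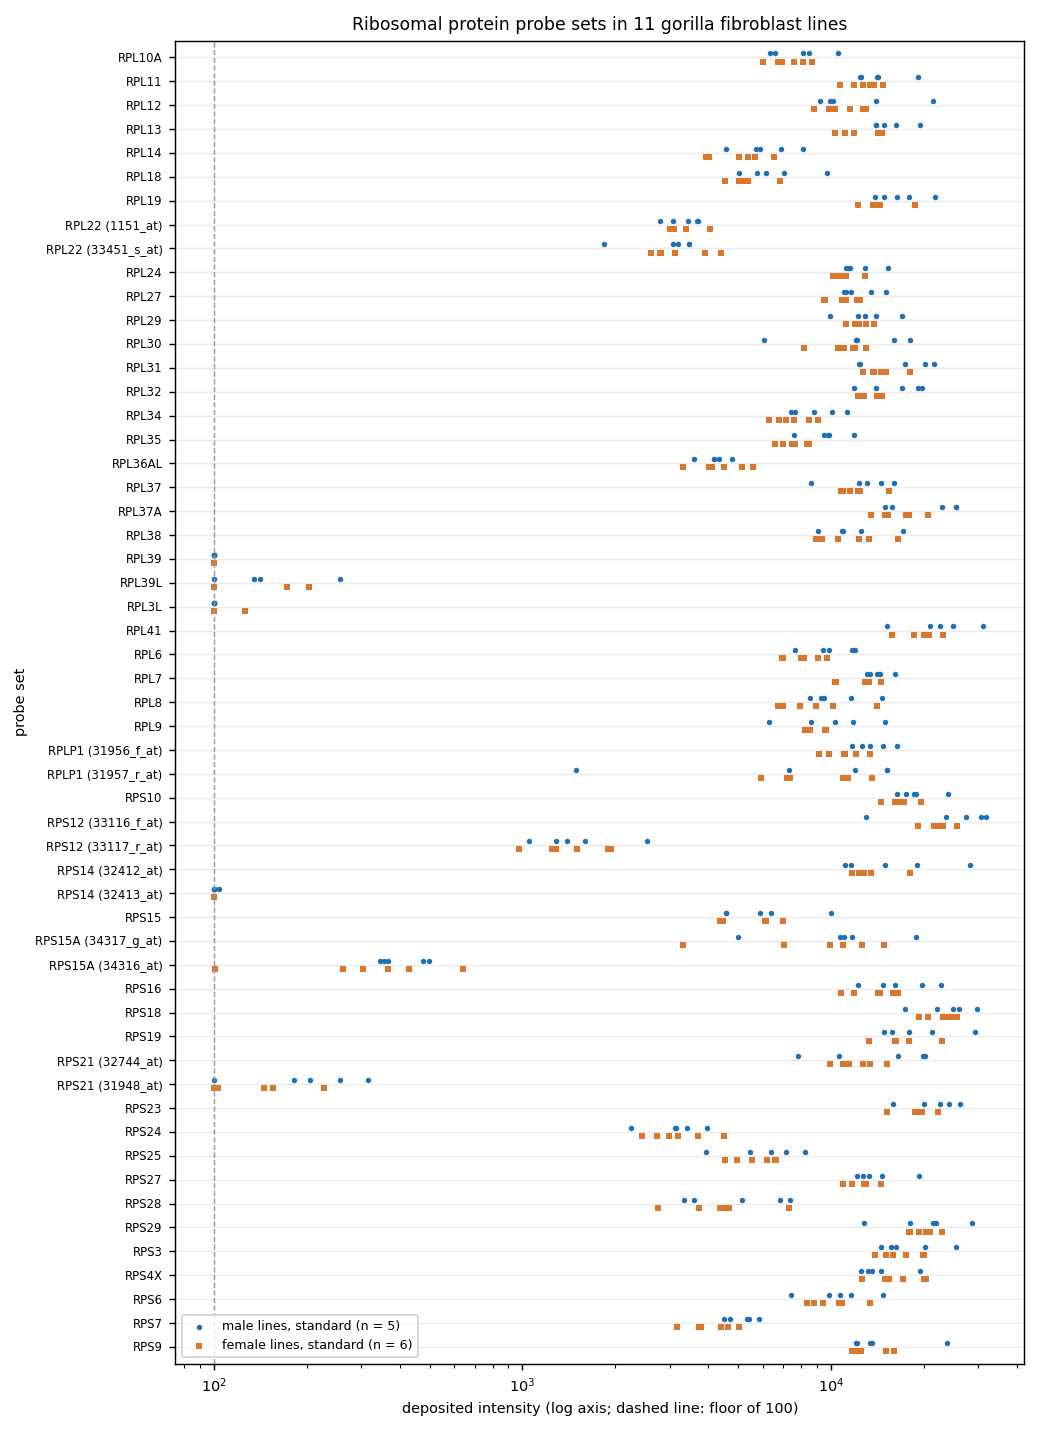
Deposited intensity (log axis) of all 55 probe sets, one row each, in the 5 male lines (circles) and the 6 female lines (squares) harvested under standard conditions; the dashed line is the floor of 100. Points of both sexes overlap in every row, and RPL39, RPL3L, RPL39L and the dimmer probe sets of RPS14 and RPS21 lie at or near the floor.

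The sex labels were checked with RPS4Y1, the Y-linked copy of the ribosomal protein gene RPS4X. It had 3976, 2662, 4363, 3049 and 4185 in males 1 to 5, with a mean of 3647 ± 748 (SD, n = 5), and 3540 in the culture of male line 2 at 50% confluence. Females 1, 2, 4, 5 and 6 had 100 to 115, and the line labelled female 3 had 2595. That line goes against its label and is kept where the label puts it. Ribosomal protein values that it moves by over 1.5 times, or that set the sexes against each other by name, are given with and without it. Arrays also differed at their bright end, where these genes lie. The brightest probe set of an array had 18027 in the culture at 50% confluence and 20629 in male 3, against 22774 to 43135 on the other 10 arrays, and the same arrays had the most probe sets at the floor, 49.2% and 48.8% against 40.1% to 46.3%.

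Male line 1 carried the highest ribosomal protein signals as deposited. It was the highest of the 11 standard lines in 33 of the 50 probe sets above the floor, and the lowest in 1. Among all 7541 probe sets tested it was the highest in 11.9%. It was also the lowest in 21.0% of them, the largest such share of any standard line. The mean log2 intensity of these 50 probe sets was 13.62, 13.43, 13.01, 13.24 and 13.16 in males 1 to 5, between 13.00 and 13.33 in the females, and 12.98 in the culture at 50% confluence. Other bright transcripts shared part of this pattern: of 297 further probe sets with a mean log2 above 12, male 1 was highest in 87, or 29.3%. Quantile normalization, which gives all arrays the same distribution of values, cut the count of probe sets led by male 1 to 14 of 50, beside 12.1% of all probe sets tested, and narrowed the means to 13.10 to 13.33 over the standard lines. Male 3 had the lowest deposited value in 13 of the 50 probe sets, beside 16.02% of all tested, and the line labelled female 3 the lowest normalized value in 11, beside 9.06%.

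**Figure D2:**
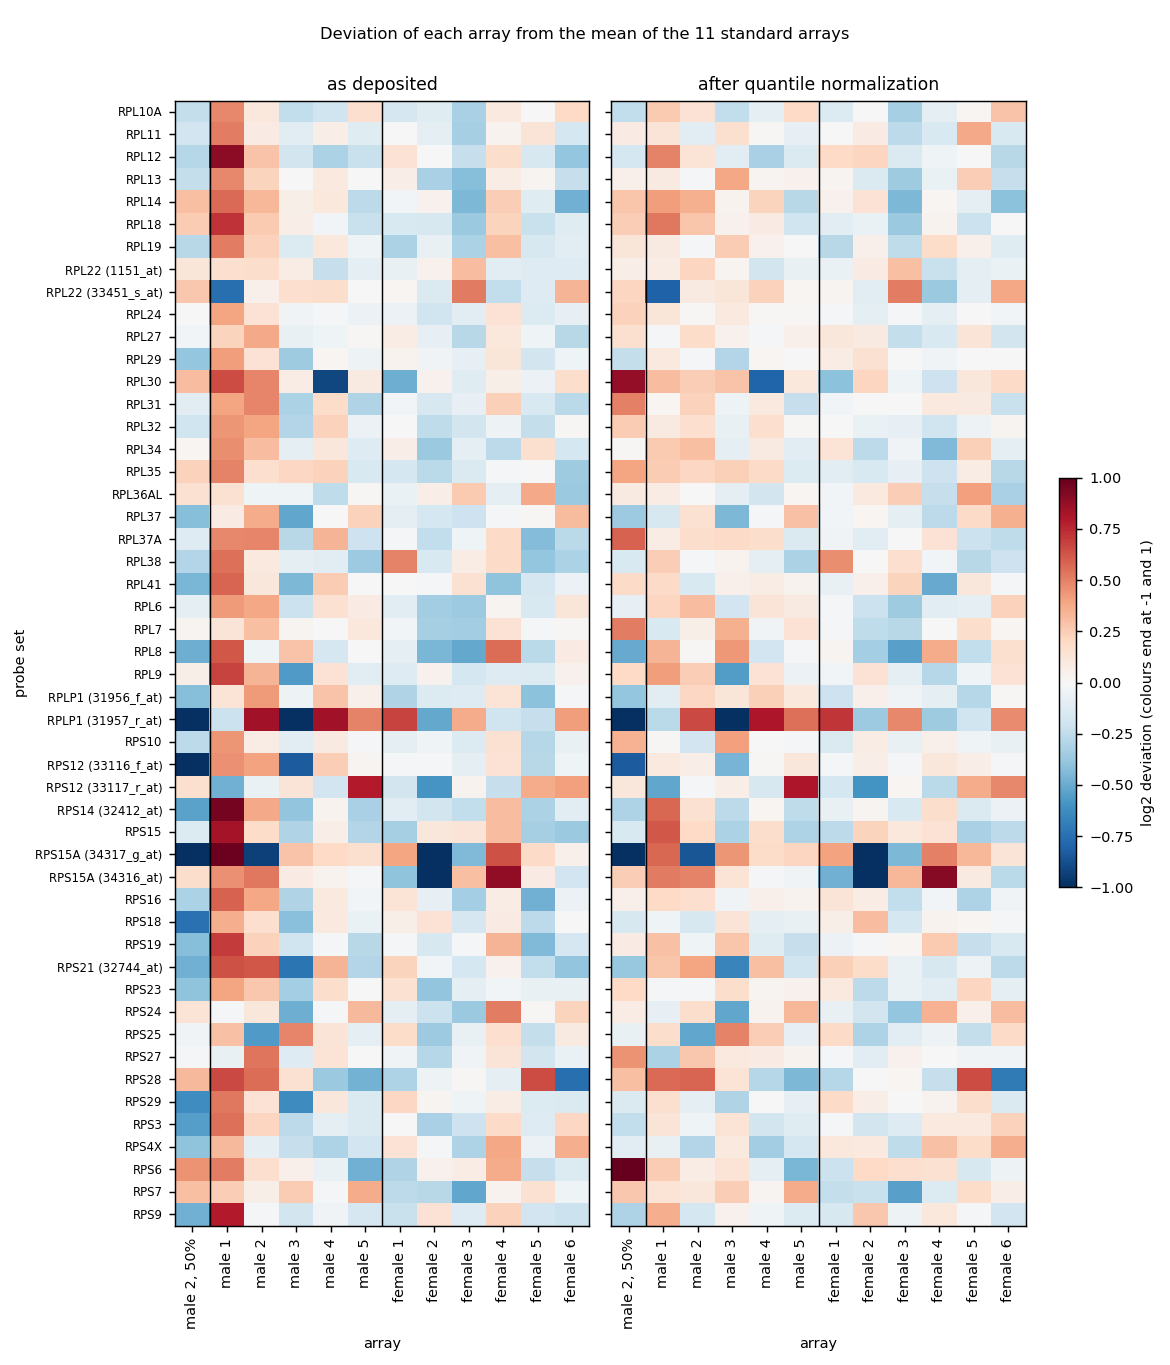
Log2 deviation of each array (columns) from the mean of the 11 standard arrays for the 50 probe sets above the floor (rows), as deposited on the left and after quantile normalization on the right; red is above and blue below that mean, and colours end at -1 and 1. The red column of male 1 on the left fades on the right, while single cells of RPLP1, RPS15A, RPL30, RPL22 and RPS28 keep their colour.

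Between the lines, ribosomal protein probe sets varied little. The SD of log2 intensity over the 11 standard lines, after quantile normalization, had a median of 0.21 over the 52 member probe sets that passed the filter on mean level, against 0.41 over all 7541 tested. It was below 0.25 in 35 of 52, while 10.4% of all probe sets tested were below that limit. Bright probe sets vary less in general: the 297 other probe sets with a mean log2 above 12 had a median SD of 0.30, and the 45 members above that level one of 0.20. Of those 297, 106 were below 0.25, or 35.7%. Scaling decides part of the size, since the median SD of the members was 0.29 as deposited, against 0.33 for the other bright probe sets on the same values. The highest line exceeded the lowest by a median of 1.90-fold as deposited and 1.64-fold after normalization, over the 50 probe sets above the floor.

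The 5 steadiest probe sets after normalization were all of this bright kind. RPL24, a large subunit protein near the subunit interface, had 15313, 12890, 11357, 11543 and 11194 in males 1 to 5 and 10117, 10592, 10814, 10997, 11168 and 12834 in the females, from low to high. Its SD was 0.064 after normalization and 0.17 as deposited, and male 1 was the highest line on both scales. RPL32, RPL29, RPS23 and RPL27 followed with normalized SDs of 0.11, 0.11, 0.13 and 0.14, and that of RPL29 was 0.059 without male 3. The order depends on the scale: as deposited these 4 had 0.26, 0.20, 0.24 and 0.20, and RPL22 on 1151_at was the steadiest member, with 0.16. RPS19, RPL11 and RPS24 are among the genes mutated in Diamond-Blackfan anaemia, a human failure of red cell production. Their SDs were 0.20, 0.18 and 0.29, and this fixed choice does not cover every gene of that disease.

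**Figure D3:**
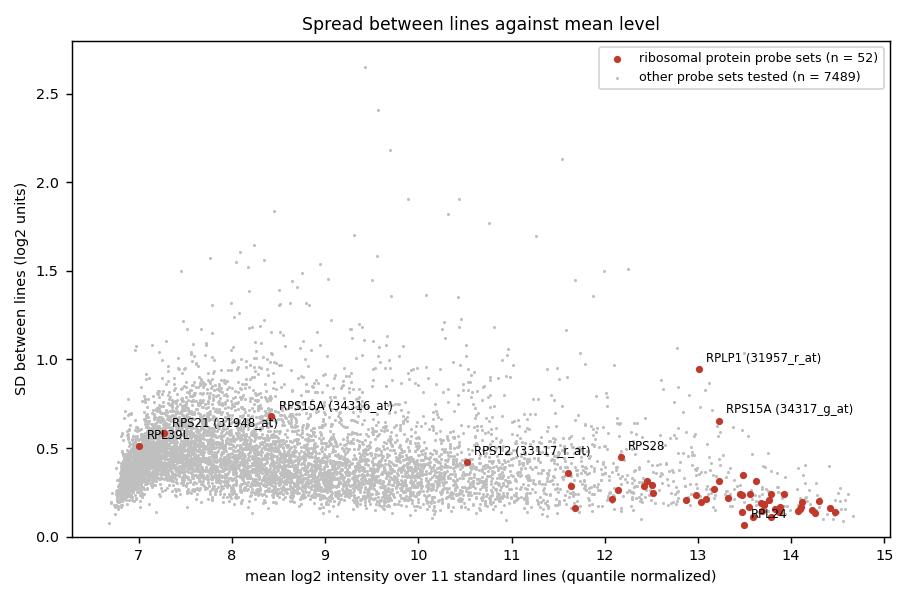
SD between the 11 standard lines (log2 units) against mean log2 intensity for each probe set tested, with ribosomal protein probe sets in red and the others in grey. Most red points lie low at the bright right end, and the named points, among them RPLP1 31957_r_at at 0.95 and RPS15A 34317_g_at at 0.66, stand above them, with RPL24 at 0.064 below.

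Few members varied widely, and in most of these 1 or 2 lines made the spread. The largest SD, 0.95, was that of RPLP1 on probe set 31957_r_at. RPLP1 is an acidic protein of the stalk, the flexible arm that recruits elongation factors. This probe set had 7310, 15178, 1496, 15148 and 11949 in males 1 to 5, and 5943 to 13542 in the females with a median of 9171. Male 3 lay far below all others, and without it the SD was 0.48.

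RPS15A, a protein of the small subunit, came next on both of its probe sets. On 34317_g_at the males had 18813, 5002, 11678, 11003 and 10674, and females 1 to 6 had 12558, 3320, 7055, 14864, 10912 and 9883. The low values were those of female 2 and male 2, and the second culture of male line 2 was low as well, at 4342. On the dimmer 34316_at, female 2 was again lowest, at 101, while the other 5 females had 263 to 642 and the males 345 to 499. Male 2 was the highest male there, at 499. Without female 2 the SD of RPS15A was 0.46 on 34317_g_at, against 0.66 with it, and 0.41 on 34316_at, against 0.68.

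RPS28, a small protein at the exit of the messenger RNA channel, differed between many lines rather than 1 (SD 0.45). It had 7338, 6817, 5150, 3585 and 3346 in males 1 to 5, and 3744, 4470, 4673, 4362, 7299 and 2745 in females 1 to 6. Each sex held lines near both ends. Leaving out any 1 line kept the SD between 0.40 and 0.47.

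RPL30, which in yeast regulates the splicing of its own transcript, had an SD of 0.35. Male 4 had 6085, while the other males had 12062 to 17982 and the females 8158 to 12970. Without male 4 the SD was 0.23. The probe set 33451_s_at of RPL22, an RNA-binding protein of the large subunit, had 1831 in male 1 and 3083 to 3476 in the other males, with 2601 to 4410 in the females; its SD of 0.36 was 0.25 without male 1. The remaining 4 of the 10 widest were RPS12 on 33117_r_at (0.42), RPS21 on 32744_at (0.31), RPL8 (0.31) and RPS15 (0.31). RPL8 lies in the core of the large subunit near the site of peptide bond formation. Female 4 had 14097 of it, against 6709 to 10115 in the other female lines. The males had 14667, 9294, 11637, 8514 and 9513, so male 1 was the highest line as deposited, and male 3 was highest after normalization. Without female 4 the SD of RPL8 stayed at 0.30, and without the line labelled female 3 it was 0.27.

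Of the 49 genes, 6 had 2 probe sets each, and the other 43 had 1. Suffixes give the maker's class of a probe set: _f for probes shared by a gene family, _s and _g for probes shared between similar transcripts, and _r where some design rules were dropped. RPL22 had 3690, 3695, 3444, 2799 and 3075 on 1151_at in males 1 to 5 and 3000 to 4054 in the females. Male 1 was thus among the highest males on 1151_at and the lowest line on 33451_s_at. The log2 gap between both, taken within a line, ran from -0.38 in female 6 to 0.96 in male 1 (SD 0.36 over 11 lines), as wide as the spread of 33451_s_at itself (0.36) and wider than that of 1151_at (0.16).

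RPLP1 had the widest disagreement. Its family probe set, 31956_f_at, had 13358, 16338, 11712, 14755 and 12568 in the males and 9154 to 13357 in the females. Male 3, far below the rest on 31957_r_at, lay within the other lines on 31956_f_at. The log2 gap ran from -0.37 in female 1 to 3.17 in male 3 (SD 0.96), while 31956_f_at itself had an SD of 0.17. In the culture at 50% confluence the gap was 2.84, near that of male 3, and the standard culture of the same line had 0.090. Male 3 and the culture at 50% confluence are the arrays with the lowest maxima given above, and the part of this in the RPLP1 values was not tested.

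For RPS12, a protein of the beak of the small subunit, the probe sets also pointed apart. The family probe set 33116_f_at had 31718, 30642, 12987, 27379 and 23539 in the males and 19132 to 25574 in the females, so male 3 was lowest of the 11. On 33117_r_at male 3 had 1595, the second highest male, and male 5 had 2537, the highest line. The gap ran from 3.20 in male 5 to 4.56 in female 2, with an SD of 0.46. RPS15A had a gap from 3.46 in male 2 to 5.69 in female 1 (SD 0.62): both of its probe sets placed female 2 lowest, and male 2 was the lowest male on 34317_g_at and, as deposited, the highest on 34316_at, where male 1 was highest after normalization.

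RPS14 and RPS21 gave no usable gap, since the dimmer probe set was at the floor in some or all lines. RPS14, whose reduced dosage is known from a human blood disorder, had 28238, 18933, 11085, 14920 and 11634 on 32412_at in the males and 11704 to 18002 in the females. RPS21 had 20178, 19916, 7817, 16452 and 10611 on 32744_at in the males and 9888 to 15147 in the females. On 31948_at its male lines had 182, 257, 100, 205 and 316. Male 3 was lowest of all lines on 32744_at and at the floor on 31948_at.

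**Figure D4:**
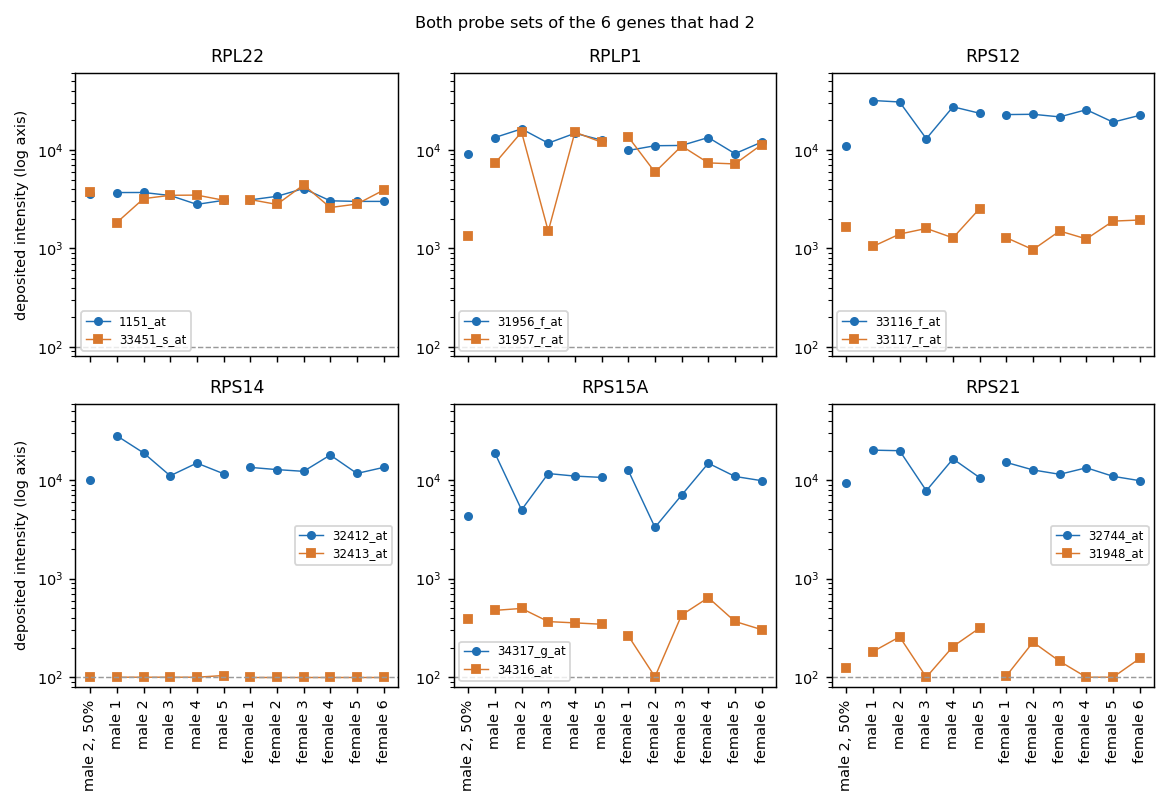
Deposited intensities (log axis) of both probe sets of the 6 genes that had 2, over the culture at 50% confluence, males 1 to 5 and females 1 to 6; circles are the brighter probe set and squares the dimmer one, and the dashed line is the floor. On 31957_r_at RPLP1 drops in male 3 (1496) and in the culture at 50% confluence (1321) without a like drop on 31956_f_at.

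Between the sexes, none of the 52 probe sets tested passed the threshold of an adjusted p of 0.05 in limma, as 0.0% of all 7541 did. That share holds with the line labelled female 3 kept as female, where even the Y-linked RPS4Y1 was not called (limma adjusted p = 0.098). Without that line 1 of all 7541 was called, and no member. At an unadjusted p under 0.05 there were 0 members, against 5.28% of all probe sets. Male minus female differences were small, from -0.29 to 0.56 log2 units with a median of 0.079, beside -0.0081 over all probe sets tested. They were positive in 39 of the 52, where 48.9% of all probe sets tested were positive. As deposited the count was 47 and the median 0.17, and with median scaling 46 and 0.17; without male 1 it was 31 and 0.050 after quantile normalization, and without the line labelled female 3 it was 37 and 0.074. The members share arrays, so these counts are a description and carry no test.

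RPS7, a small subunit protein that also binds the p53 regulator MDM2, had 5359, 4715, 5410, 4484 and 5860 in the males and 3775, 3737, 3167, 4635, 5043 and 4391 in females 1 to 6. The male values were mostly above the female ones, with overlap between 4484 and 5043. The log2 difference was 0.33 (SE 0.18, limma adjusted p = 0.888), and 0.25 without the line labelled female 3, the lowest. RPL35, which lies where the new protein leaves the ribosome, had 7573 to 11905 in the males and 6592 to 8464 in the females, a difference of 0.28 (SE 0.16). RPL14 (0.28, SE 0.19), RPL18 (0.27, SE 0.18) and the floor-limited RPS21 probe set 31948_at (0.56, SE 0.29) completed the 5 positive values with the smallest p, each at the same adjusted p of 0.888. Without the line labelled female 3 these were 0.21, 0.22 and 0.59, and RPL35 had 0.29. Without male 1 the value of RPL18 was 0.17, and with a floor of 200 that of RPS21 on 31948_at was 0.14.

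RPS4X was the most negative. The X-linked gene is known in humans to be active on both X chromosomes, and its protein takes the same place in the small subunit as that of RPS4Y1. It had 19389, 14478, 13202, 12537 and 13572 in the males, with a mean of 14636 ± 2748 (SD, n = 5), and 17159, 15366, 12551, 20252, 14905 and 19933 in females 1 to 6, with a mean of 16694 ± 3017 (SD, n = 6). As deposited, male 1 lay among the highest females and the line labelled female 3 among the lowest males; after normalization the highest male was male 3, and the line labelled female 3 lay below the other 5 females. The difference was -0.29 (SE 0.18, unadjusted p = 0.118, limma adjusted p = 0.888), and without the line labelled female 3 it was -0.37 (SE 0.17, unadjusted p = 0.0489, limma adjusted p = 0.939). As deposited it was -0.19. The other 4 negative values with the smallest p were those of RPS29 and RPS18, both of the head of the small subunit (-0.12 and -0.087), RPLP1 on 31957_r_at (-0.28) and RPL22 on 33451_s_at (-0.13). That of RPLP1 was 0.31 without male 3, that of RPL22 0.055 without male 1, that of RPS29 0.0057 as deposited, and that of RPS18 0.054 as deposited and 0.047 with median scaling, so no direction is given for these 4. Without the line labelled female 3 they were -0.13 for RPS29, -0.13 for RPS18, -0.20 for RPLP1 and -0.039 for RPL22.

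RPL24 was the 1 member of 52 whose male lines all lay above all female lines after quantile normalization, where 0.146% of all probe sets did so. The lowest normalized log2 value in the males was 13.50 and the highest in the females 13.49. The means differed by 0.089 (SE 0.15, limma adjusted p = 0.959), and by 0.093 without the line labelled female 3. As deposited, the lines overlapped. No member had all male lines below all female lines, beside 0.212% of all probe sets.

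For donor age, with sex as a covariate, limma called 0 of the 52 probe sets, beside 0.0% of all tested. One member had an unadjusted p under 0.05, against 5.40% of all probe sets. Slopes were positive in 27 of 52, beside 49.4% of all, and their median was 0.0078 log2 units per 10 years. That 1 member was RPS28, with a slope of 0.32 (SE 0.11, unadjusted p = 0.0125, limma adjusted p = 0.851). By donor age it had 2745 at 2 years, 3346 at 3 years, 3585 at 18 years, 7338, 3744 and 4470 at 19 years, 5150 at 24 years, 6817 and 4362 at 26 years, 7299 at 30 years and 4673 at 35 years. The youngest donors were lowest, and the 3 lines of donors aged 19 years ran from 3744 to 7338, the highest value of all. Without the line labelled female 3, the oldest donor, the slope was 0.39 (limma adjusted p = 0.993). Without female 6, aged 2 years, it was 0.34. In that fit 0 of the 52 members, RPS28 included, had an unadjusted limma p under 0.05, beside 3.73% of all probe sets.

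The other 4 positive slopes with the smallest p were those of RPS15A on 34316_at (0.26), RPL31 (0.11), RPL35 (0.10) and RPL36AL (0.11), the autosomal copy of the X-linked RPL36A. On the negative side stood RPS24 (-0.15), RPL10A (-0.13), the protein of the mobile L1 stalk, RPL37 (-0.14), RPS12 on 33117_r_at (-0.18) and RPS21 on 31948_at (-0.20). All 9 had a limma adjusted p of 0.937. The second probe set of RPS15A had a slope of -0.075 (-0.023 without the line labelled female 3), that of RPS12 -0.029 and that of RPS21 0.044. Several of these slopes changed without one of the youngest donors. Without female 6, aged 2 years, that of RPS15A on 34316_at was 0.46, RPL36AL 0.052, RPS12 -0.11 and RPS21 -0.32. Without male 5, aged 3 years, that of RPL35 was 0.069, RPL36AL 0.17, RPS12 -0.045 and RPS21 -0.11. With median scaling RPL35 had 0.16, RPL36AL 0.17, RPS24 -0.089, RPL10A -0.053, RPL37 -0.074 and RPS12 -0.11, and with a floor of 200 RPS21 had -0.077. The slope of age differed between the sexes in 0 of the 52 probe sets (limma interaction), with 0 at an unadjusted p under 0.05, beside 3.77% of all probe sets.

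The culture of male line 2 at 50% confluence was set against the standard culture of that line. With a single array on either side the differences were not replicated, and no test was made. After quantile normalization 1 of the 52 probe sets tested was 2-fold or more apart, while 14.3% of all probe sets were; 7.23% of all were that much lower. That probe set was 31957_r_at of RPLP1, with 1321 at 50% confluence and 15178 in the standard culture, 10.2-fold lower after normalization. The other RPLP1 probe set, 31956_f_at, had 9014 and 16338, a log2 difference of -0.60. The median difference over the 52 was -0.040, beside 0.0 over all probe sets tested.

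The deposited values gave another picture for these bright genes. On them the members' median was -0.40, where all probe sets tested had -0.052 and the 297 other bright ones -0.095, and 43 of 52 were lower at 50% confluence, beside 52.6% of all. Scaling both arrays to a common median gave a members' median of 0.096 and moved the median of all probe sets to 0.44. Measured from the median of all probe sets, the members' median was -0.35 as deposited and -0.040 after quantile normalization. Median scaling shifts a whole array, so it gives the same -0.35 by construction. As deposited 4 probe sets were 2-fold or more lower, beside 11.2% of all (16.2% were that far apart and 5.03% higher): 31957_r_at of RPLP1, 33116_f_at of RPS12 and both of RPS21. With median scaling 2 were 2-fold or more apart, beside 20.5% of all: RPLP1 on 31957_r_at was lower, beside 3.06%, and RPS25, a small subunit protein, was higher with 5707 at 50% confluence and 3944 in the standard culture, beside 17.4%. The brightest value of the array at 50% confluence was 18027 and that of the standard array 43135, and the part of this in the difference was not tested.

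After quantile normalization the 50% culture lay outside the range of the 11 standard arrays in 15 of 52 members, beside 11.6% of all probe sets. It lay above the range in 9, beside 6.83%: RPL7, RPL24, RPL30, RPL31, RPL32, RPL35, RPL37A, RPS6 and RPS27. It lay below in 6, beside 4.76%: both probe sets of RPLP1, RPS12 on 33116_f_at, RPS14 on 32412_at, RPS3 and RPS9. As deposited it lay below the range in 11, beside 6.18%. The 9 members named as above the range all lay within it as deposited. On that scale RPL35 (0.064) and RPS6 (0.28) were higher than in the standard culture. The rest of the 9 were lower, among them RPL31 (-0.60) and RPL37A (-0.62).

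Among single members, RPS12 on 33116_f_at had 10973 at 50% confluence and 30642 in the standard culture, and the lowest standard line, male 3, had 12987. Its normalized log2 difference was -0.89, and on 33117_r_at it was 0.14. RPS21 had 9321 and 19916 on 32744_at (-0.78), and 123 and 257 on 31948_at (-0.71), the same direction on both. The floor limits 31948_at, whose difference was -0.24 with a floor of 200. RPS6, the small subunit protein phosphorylated by the S6 kinases of the growth pathway, was the most positive, at 14086 in the 50% culture and 11619 in the standard culture. The log2 difference of RPS6 was 0.96 after normalization and 0.28 as deposited, and the standard lines had 7397 to 14716. RPL39L followed with 140 at 50% confluence against the floor in the standard culture (0.70), a value that the floor limits. Of RPL30 (0.63), RPS10 (0.54) and RPL7 (0.45) the deposited differences were -0.18, -0.33 and -0.27, the other sign.

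**Figure D5:**
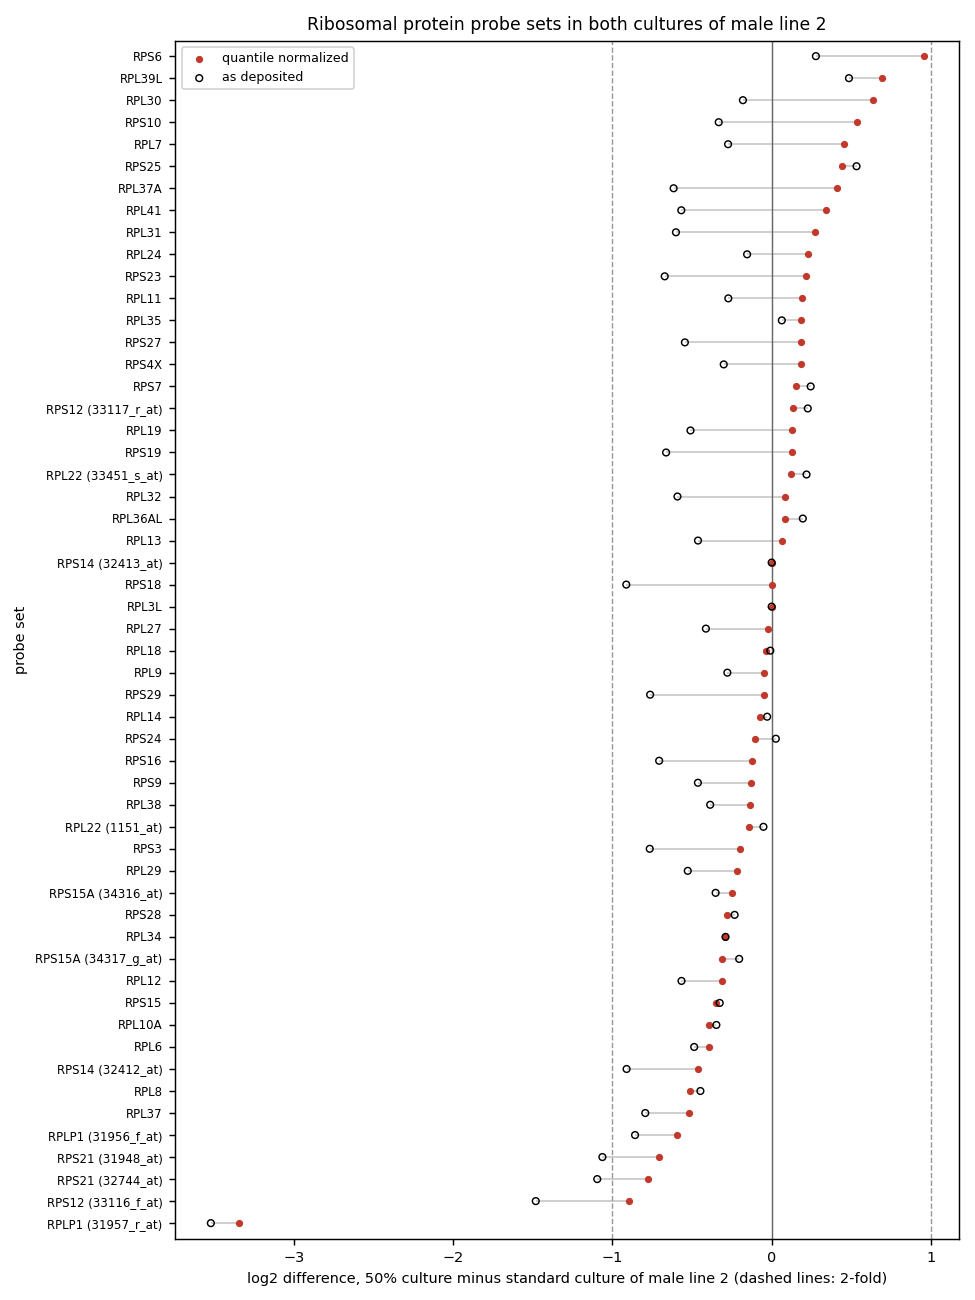
Log2 difference between the culture of male line 2 at 50% confluence and its standard culture for each ribosomal protein probe set but RPL39, ordered by the quantile-normalized value (filled) with the deposited value (open); dashed lines mark 2-fold. Most open points lie left of their filled point, and RPLP1 31957_r_at lies far to the left on both scales.

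Genes that work beside the ribosomal proteins were read from fixed lists. FAU, which codes for a small subunit protein made as a fusion, had an SD of 0.20 between lines. Its male minus female difference was 0.10 (SE 0.18, limma adjusted p = 0.960), and 0.13 without the line labelled female 3. Between the cultures it differed by -0.097. The list of other messenger RNAs with the same 5' pyrimidine tract, mainly elongation and initiation factors, had 22 probe sets tested and a median SD of 0.31. It was positive for sex in 17 of 22, beside 48.9% of all, with a median of 0.11, and none was called. Its median culture difference was 0.0005, with 11 of 22 positive. The ends were a probe set of EEF1A1, the factor that brings transfer RNA to the ribosome, with 10531 at 50% confluence and 40333 in the standard culture (-1.16), and one of the RNA-binding protein HNRNPA1, with 1491 and 717 (0.99). Mitochondrial ribosomal proteins, which serve the ribosome of another compartment, had 16 probe sets tested, a median SD of 0.34 and a median culture difference of 0.16, with none 2-fold apart.

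Ribosome biogenesis factors, which make ribosomal RNA and assemble the subunits in the nucleolus, had a median SD of 0.45 over 40 probe sets tested, beside 0.41 over all probe sets. Their male minus female difference was positive in 34 of the 40, beside 48.9% of all, with a median of 0.26; none was called, and 5 of 40 had an unadjusted p under 0.05, beside 5.28%. The nucleolar methyltransferase FBL had differences of 0.56 (SE 0.25) and 0.55 (SE 0.25) on its probe sets, both at a limma adjusted p of 0.888. Of the 40, 8 were 2-fold or more higher at 50% confluence and 0 lower, beside 7.04% of all probe sets higher. NCL, nucleolin, had 5249 at 50% confluence and 2054 in the standard culture (1.31), and PA2G4 1029 and 322 (1.71). The median over the list was 0.34, against -0.040 for the ribosomal proteins, and as deposited 0.25 against -0.40.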

How the data were processed

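The authors deposited 1 intensity per probe set and array, on a linear scale with a floor of 100; no source used here names the summarising software or scaling. The 2% trimmed means were 411 to 427. The file has no other column of values. Here intensities were taken to log2 and quantile normalized over the 12 arrays, and tests took the 7541 probe sets, the 67 controls aside, with a mean above the 40th percentile. The 11 standard arrays entered 1 fit for sex and 1 for age per 10 years adjusted for sex, made by limma 3.58.1 (R 4.3.3) with lmFit and eBayes, Benjamini-Hochberg adjustment over all tested and a threshold of 0.05, and checked on simulated data. P-values measure the spread between single arrays of different animals, and their number limits the precision. The annotation gave 1 symbol for 10961 probe sets, several for 545 and none for 1119; 47 of 49 member symbols were in the gorilla gene table used for names. Members and lists were chosen with earlier results of these data known. Probe sets were named by rule: the 5 smallest p per direction for sex and age, the 10 largest and 5 smallest SDs above the floor, the 5 furthest per direction and any past 2-fold between cultures, every gene with 2 probe sets, those at the floor, and fixed genes of interest. RPS25, RPL8 of female 4, members outside the range of the standard arrays, the deposited signs of RPL30, RPS10 and RPL7 and RPL24's separation of the sexes were picked out after their values were seen. Alternatives changed scaling, floor, filter, array weights, donors, age scale and the culture of male line 2, and left out each line.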

Additional observations from a re-analysis of the deposited data

Results flagged for a closer look

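In groups of this size a value far from the others of its sex was looked for on the quantile-normalized log2 scale. There were 108 groups, 5 or 6 lines on 1 probe set, where chance alone marks about 1 in 20, and 9 were found. Intensities printed below are as deposited. The marks refer to the normalized values, and on the deposited scale several of these gaps are less marked beside the spread of the other lines. The line labelled female 3 had 2595 of RPS4Y1, while females 1, 2, 4, 5 and 6 had 100 to 115. Low against the other males were RPL30 in male 4 (6085 against 12062 to 17982), RPS12 on 33116_f_at in male 3 (12987 against 23539 to 31718), RPL22 on 33451_s_at in male 1 (1831 against 3083 to 3476), RPS15A on 34317_g_at in male 2 (5002 against 10674 to 18813) and RPL35 in male 5 (7573 against 9472 to 11905). RPL13 in male 3 was the highest male after normalization, although its deposited intensity of 13968 was the second lowest, with 13955 to 19422 in the other males. The probe set 32413_at of RPS14 had 104 in male 5 and RPL3L had 126 in female 6, in each case against the floor of 100 in the others of that sex, so these 2 carry almost no signal.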

How the results depend on the processing

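No ribosomal protein probe set was called for sex or age under any alternative run: deposited values, median scaling, a floor of 200, no filter, a filter at the 60th percentile, array weights, adults only, log2 of age, the 50% culture in place of male 2, or any line left out (0 each time). At an unadjusted p under 0.05 there were 6 of 52 members for sex with a floor of 200 (5.16% of all probe sets tested) and 6 of 55 with no filter (3.72%), against 0 in the fit reported, and 5 (5.98%) and 6 (5.44%) for age, against 1. The count of members 2-fold apart between the cultures was 1 after quantile normalization, 4 as deposited and 2 with median scaling, and their median difference, -0.040, was -0.40 as deposited. With a line left out, the median over members was lowest for sex without male 1, at 0.050, and highest without male 4, at 0.0999, the median age slope went from -0.0036 (without female 5) to 0.026 (without the line labelled female 3), and the median SD went from 0.197 (without male 1) to 0.219 (without male 2). In adults only the median age slope was -0.041, with 20 of 52 slopes positive. Of the sex differences named, 5 of 150 values under alternatives changed sign: RPS29 (0.0057) and RPS18 (0.054) as deposited, RPS18 (0.047) with median scaling, RPLP1 31957_r_at (0.31) without male 3 and RPL22 33451_s_at (0.055) without male 1, the other ends with 1 line left out being -0.52 and -0.21; the cause was not tested. Of the age slopes named, 0 of 150 did. Each set of 150 holds deposited values, median scaling, a floor of 200, no filter and each line left out. No filter leaves a difference or slope as it is. Adults only, log2 of age, array weights and the 50% culture in place of male 2 are not among the 150. The floor bounds 5 probe sets, and the part of the lower maxima of 2 arrays in these values was not tested.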
